A study of Mus musculus with 6 samples.

Results

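The 10 genes Gfra1, Ret, Etv5, Id4, Zbtb16, Neurog3, Nanos3, Lin28a, Sall4 and Shisa6 mark or maintain the spermatogonial stem and progenitor cells of the mouse testis, and were followed in testes labelled Rnu11-cKO and in control testes. They were found by exact symbol in the gene tables, which hold 55353 gene symbols, and all 10 were among the 17959 genes whose average reached 1 TPM (transcript abundance scaled to a fixed total) over the 6 libraries. Whole testes were dissected on postnatal day 14 from 3 animals labelled Rnu11-cKO and 3 labelled control, and rRNA-depleted, stranded total RNA was sequenced. No treatment is given in the labels. The allele, the Cre line, the cells in which it acts and the alleles the controls carry are not given in the labels. Rnu11 encodes U11, the small nuclear RNA with which the minor spliceosome recognises the 5′ splice site of a small class of introns. The question the design poses is what the loss of Rnu11 does to the RNA of the juvenile testis.

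Spermatogonial stem cells sit among Sertoli cells on the basement membrane of the tubule. Sertoli and peritubular cells make GDNF, which binds the co-receptor GFRA1 and the receptor tyrosine kinase RET on the stem cells and maintains their self-renewal. Cells that leave this state lose Gfra1, gain Neurog3 as progenitors, and under retinoic acid turn on Kit and become differentiating spermatogonia, which then enter meiosis. In a whole testis these cells are a minority, and in such bulk RNA fewer cells of a type and less RNA per cell cannot be told apart.

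Rnu11 itself, the check of the labels, read 196, 393 and 203 TPM in the Rnu11 cKO libraries and 614, 576 and 550 TPM in the control libraries. Every Rnu11 cKO library lay below every control library (log2 difference −1.21, SE 0.26), but the difference did not pass the test across all genes (limma, adjusted p = 0.29). The tables gave a TPM above 0 to between 30113 and 34510 genes per library. Protein-coding genes outside the mitochondrial genome took between 25.3% and 31.0% of the TPM. TPM keeps no record of read depth, so the depth is unknown and no counting interval can be given. Differences below are means of log2(TPM + 1) in Rnu11 cKO minus control, tested with limma over all 17959 genes adjusted by Benjamini-Hochberg, at a threshold of 0.05, and the scale understates the change of genes near 1 TPM.

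None of the 10 stem and progenitor genes passed the test, where 0.0278% of all genes tested did (5 genes). Of the 10 genes, 1, Neurog3, had an unadjusted p under 0.05, against 16.1% of all genes. Neurog3 reached the 1 TPM filter only through the Rnu11 cKO group, and none of the other 9 genes had such a p. In direction, 7 were higher and 3 lower in Rnu11 cKO, with a median log2 difference of 0.15 beside 0.09 for all genes tested, of which 11925 were higher. In 2 of them, Gfra1 and Neurog3, every Rnu11 cKO library lay above every control library, which was so for 14.5% of all genes; for Neurog3 the filter favoured that direction. In none did every Rnu11 cKO library lie below every control library, against 5.77% of all genes. Summed over the 10 genes, the level was 76.2, 83.7 and 71.1 TPM in the Rnu11 cKO libraries and 61.8, 77.6 and 71.4 TPM in the control libraries. The sums overlap, and control replicate 1, the lowest library, held the lowest value of 6 of the 10 genes.

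**Figure D1:**
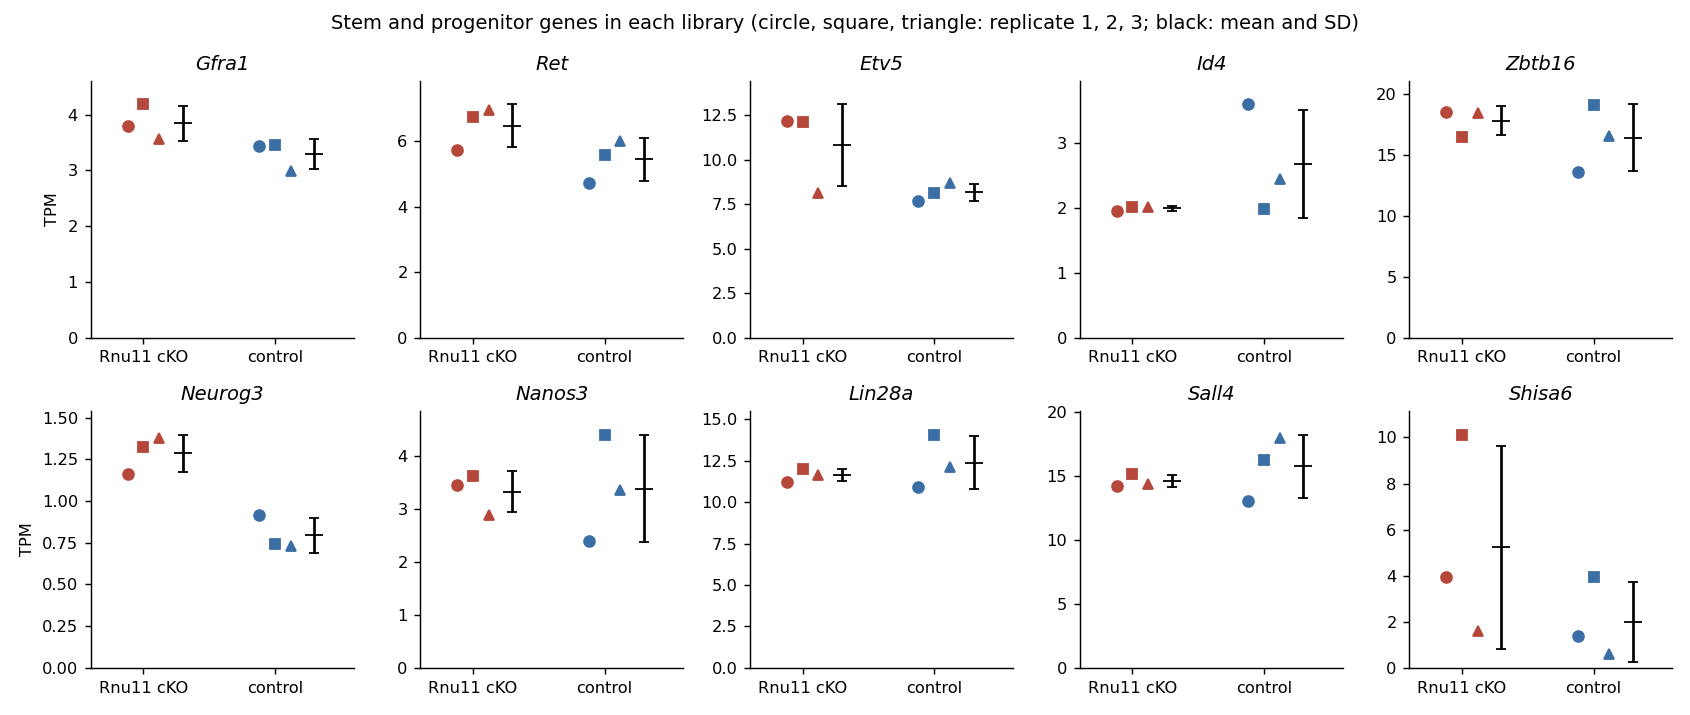
TPM of each of the 10 genes in the 3 Rnu11 cKO libraries (red, left) and the 3 control libraries (blue, right), with the mean and SD of each group in black; each panel has its own axis from 0. The groups separate for Gfra1 and Neurog3 and overlap for the other genes, and Shisa6 spans 1.61 to 10.1 TPM within the Rnu11 cKO group.

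The GDNF receptor genes were slightly higher, as most genes were, and neither passed the test. Gfra1, on chromosome 19 (58235604 to 58455909, minus strand; all coordinates are GRCm38), encodes the GPI-anchored co-receptor that binds GDNF and defines the stem cell pool. Its level was 3.79, 4.18 and 3.56 TPM in the Rnu11 cKO libraries and 3.44, 3.45 and 2.99 TPM in the control libraries. The lowest Rnu11 cKO library lay just above the highest control library. The means were 3.85 ± 0.31 TPM in Rnu11 cKO and 3.29 ± 0.27 TPM in control testes (SD, n = 3 each), a log2 difference of 0.17 (SE 0.11, 95% interval −0.08 to 0.43; limma, adjusted p = 0.42).

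Ret, on chromosome 6 (118151745 to 118197718, minus strand), encodes the receptor tyrosine kinase that signals for GFRA1. It read 5.74, 6.74 and 6.97 TPM in the Rnu11 cKO libraries and 4.74, 5.60 and 6.03 TPM in the control libraries. The groups overlap, because the lowest Rnu11 cKO library lay below the highest control library. The difference was 0.21 (SE 0.12, 95% interval −0.07 to 0.50; limma, adjusted p = 0.38).

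Gfra1 messages come in forms that differ by a short exon. The annotation holds 9 Gfra1 transcripts, of which 3 had a mean of at least 0.5 TPM. Gfra1-201 and Gfra1-209 contain a 15-base exon of 5 codons at chr19:58392573-58392587, and Gfra1-203 joins the neighbouring coding exons without it. The stretch is printed because it tells Gfra1-203, described next, from the other two forms; capitals mark the exon, with 30 bases of the neighbouring exons on each side, in the direction of the message, from the GENCODE transcripts.
Gfra1-201: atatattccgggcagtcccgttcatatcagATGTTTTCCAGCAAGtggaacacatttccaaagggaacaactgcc
Gfra1-203: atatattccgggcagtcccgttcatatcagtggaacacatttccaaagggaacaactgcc

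Of these 3 forms, Gfra1-203, which lacks the exon, was the one that separated the groups. The forms also differ outside this exon, with lengths of 4641 bases for Gfra1-201, 4415 for Gfra1-203 and 3224 for Gfra1-209. Their TPM are estimates for whole transcripts, so a difference between them cannot be assigned to the exon. Gfra1-203 read 1.38, 1.64 and 1.51 TPM in the Rnu11 cKO libraries and 0.813, 0.928 and 0.802 TPM in the control libraries, means of 1.51 ± 0.13 TPM in Rnu11 cKO and 0.847 ± 0.07 TPM in control testes (SD, n = 3 each). All 3 Rnu11 cKO libraries lay above all 3 control libraries, with a log2 difference of 0.44 (SE 0.13, unadjusted p = 0.014), which did not pass the test over the 44197 isoforms tested (limma, adjusted p = 0.43). Every control library was under 1 TPM, so Gfra1-203 entered that test only through the Rnu11 cKO group, and its direction there was favoured by the filter. The 2 forms with the exon together gave 1.75, 1.74 and 1.82 TPM in the Rnu11 cKO libraries and 1.07, 1.76 and 1.78 TPM in the control libraries. Apart from the low control replicate 1 these sums were alike in both groups.

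Among the 3 forms, the share without the exon was 44.1%, 48.6% and 45.4% in the Rnu11 cKO libraries and 43.1%, 34.5% and 31.1% in the control libraries, means of 46.0% ± 2.33 in Rnu11 cKO and 36.2% ± 6.19 in control testes (SD, n = 3 each). The lowest Rnu11 cKO share lay just above that of control replicate 1 and well above the other two controls. These 3 forms held 82.3%, 80.7% and 93.4% of Gfra1 TPM in the Rnu11 cKO libraries and 54.8%, 78.0% and 86.4% in the control libraries, so that in control replicate 1 much of the message was assigned to transcripts outside the comparison. This share was chosen after the isoform values had been seen and is given as a description, with no test. Gfra1 lies under the 5 TPM needed for the test of isoform shares. With that minimum lowered to 1 TPM, the share of Gfra1-203 among all Gfra1 transcripts had a log2 ratio difference of 0.83 (unadjusted p = 0.0041) and missed the threshold (limma, adjusted p = 0.74).

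Ret is made as 2 messages with different ends, known as RET51 and RET9 for the number of residues that only they hold at the tail of the kinase receptor. Ret-201 ends in 155 coding bases of its own, 51 whole codons, at chr6:118153856-118154010, and Ret-202 in 29 coding bases, 9 whole codons, at chr6:118155259-118155287. Both ends are shown since they tell the isoforms apart; capitals mark the bases of each isoform alone, after 30 shared bases in lower case, and the stop codons are left out.
Ret-201: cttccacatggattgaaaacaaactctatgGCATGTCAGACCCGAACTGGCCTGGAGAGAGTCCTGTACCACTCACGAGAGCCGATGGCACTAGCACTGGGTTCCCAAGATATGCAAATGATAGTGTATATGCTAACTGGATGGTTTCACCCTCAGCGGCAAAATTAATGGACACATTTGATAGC
Ret-202: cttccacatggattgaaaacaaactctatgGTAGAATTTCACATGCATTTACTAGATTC

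The short-tailed Ret-202 made up most Ret message in every library. It read 4.78, 5.75 and 6.03 TPM in the Rnu11 cKO libraries and 3.98, 4.51 and 5.08 TPM in the control libraries, a log2 difference of 0.24 (limma, adjusted p = 0.50). Ret-201 held 16.6%, 14.7% and 13.5% of Ret in the Rnu11 cKO libraries and 16.1%, 19.4% and 15.6% in the control libraries. These shares overlap (log2 ratio difference −0.23, SE 0.18; limma, adjusted p = 0.88).

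Etv5 (chromosome 16, 22381309 to 22439719, minus strand) encodes an ETS transcription factor that GDNF and FGF signals induce and that stem cell self-renewal needs. Its level was 12.2, 12.1 and 8.16 TPM in the Rnu11 cKO libraries and 7.71, 8.12 and 8.68 TPM in the control libraries. Rnu11 cKO replicates 1 and 2 stood above all controls, and replicate 3 lay among them. Bulk RNA does not tell which cells of the testis held this message, and the part of Sertoli cells was not tested. The means were 10.8 ± 2.30 TPM in Rnu11 cKO and 8.17 ± 0.48 TPM in control testes (SD, n = 3 each), with a log2 difference of 0.35 (SE 0.16, 95% interval −0.03 to 0.72; limma, adjusted p = 0.32). Without Rnu11 cKO replicate 3 the difference was 0.52, and the adjusted p was 0.16. The main transcript, Etv5-201, followed the gene (log2 difference 0.39; limma, adjusted p = 0.44). Etv5-203, which carries a 54-base coding exon absent from Etv5-201, held 1.93%, 6.82% and 3.86% of Etv5 in the Rnu11 cKO libraries and 11.5%, 6.66% and 6.50% in the control libraries. The shares overlap in Rnu11 cKO replicate 2 (limma, adjusted p = 0.86).

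The tested genes among others that respond to GDNF and FGF in cultured stem cells leaned the same way, as most genes did. Of 8 such transcription factors, 4 reached 1 TPM, all 4 were higher in Rnu11 cKO, none passed the test, and their median log2 difference was 0.27. Of all 17959 genes tested, 11925 were higher, with a median of 0.09. Mycn, a MYC family factor, had 17.7, 18.0 and 14.2 TPM in the Rnu11 cKO libraries and 11.7, 14.4 and 12.6 TPM in the control libraries (0.34, limma, adjusted p = 0.29). Bcl6b, a transcriptional repressor needed for self-renewal in culture, averaged 2.48 ± 0.49 TPM in Rnu11 cKO and 1.90 ± 0.51 TPM in control testes (SD, n = 3 each; 0.27, limma, adjusted p = 0.45). Egr2, a zinc-finger factor, lay at 1.80 ± 0.41 TPM in Rnu11 cKO and 1.30 ± 0.18 TPM in control testes (SD, n = 3 each; 0.28, limma, adjusted p = 0.38). Lhx1 and Pou3f1 were under 1 TPM and were not tested. Lhx1 averaged 0.489 TPM in Rnu11 cKO and 0.295 TPM in control testes, and Pou3f1 0.803 TPM in Rnu11 cKO and 0.954 TPM in control testes, with every Rnu11 cKO library below every control library.

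The niche ligands were higher in Rnu11 cKO testes. Of 11 ligand genes, 8 were tested and all 8 were higher, with a median of 0.51, and 5 had an unadjusted p under 0.05, where 12.1% of all genes were higher at that level. None passed the adjusted test. Gdnf read 2.48, 3.39 and 1.97 TPM in the Rnu11 cKO libraries and 1.39, 1.64 and 1.55 TPM in the control libraries, without overlap. Its means were 2.61 ± 0.72 TPM in Rnu11 cKO and 1.53 ± 0.13 TPM in control testes (SD, n = 3 each), a log2 difference of 0.50 (SE 0.17, unadjusted p = 0.020; limma, adjusted p = 0.29). Kitl, the ligand of KIT on differentiating spermatogonia, averaged 43.2 ± 7.28 TPM in Rnu11 cKO and 28.7 ± 5.29 TPM in control testes (SD, n = 3 each; 0.57, limma, adjusted p = 0.29). Bmp4 averaged 7.39 ± 0.38 TPM in Rnu11 cKO and 5.53 ± 0.53 TPM in control testes (SD, n = 3 each; 0.36, limma, adjusted p = 0.29).

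Sertoli cell markers were higher as well. All 8 were higher in Rnu11 cKO, with a median of 0.43, and their summed level was 1476 to 1958 TPM in Rnu11 cKO and 1096 to 1177 TPM in control libraries. None passed the adjusted test (limma), and 11925 of all 17959 genes were higher. The 6 Leydig cell markers were all higher, with a median of 0.88, but none passed (limma, adjusted p = 0.29 to 0.52) and their sums overlapped, at 208 to 336 TPM in Rnu11 cKO and 110 to 210 TPM in control libraries. No gene of either list was at 0 in any library. The part of these cells in the levels of the ligands was not tested. Clu, an abundant Sertoli cell secretory gene, was higher by 0.64, Amh, anti-Müllerian hormone, by 0.49, and Cldn11, a tight junction gene, by 0.40 (limma, adjusted p = 0.29 for each).

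Receptors for the other niche signals were mixed. Of 7 tested, 5 were higher and 2 lower, with a median of 0.27 and none past the test. Fgfr1, an FGF receptor of spermatogonia, averaged 12.5 ± 1.62 TPM in Rnu11 cKO and 10.6 ± 0.91 TPM in control testes (SD, n = 3 each; 0.21, limma, adjusted p = 0.38). Fgfr3, the receptor gene of the list that was lowest against control, read 3.74, 2.94 and 3.37 TPM in the Rnu11 cKO libraries and 4.63, 4.10 and 4.60 TPM in the control libraries. The groups did not overlap (−0.33, limma, adjusted p = 0.29). Csf1r, the CSF1 receptor that macrophages also carry, and Fgfr2 were higher by 0.55 and 0.70 (limma, adjusted p = 0.29 for both). The 5 macrophage markers were all higher, with a median of 0.30 and sums of 38.6 to 61.7 TPM in Rnu11 cKO and 29.3 to 50.5 TPM in control libraries, and their part in Csf1r was not tested.

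Id4 (chromosome 13, 48261228 to 48266026, plus strand) encodes an inhibitor of basic helix-loop-helix factors and marks the most stem-like spermatogonia. It read 1.95, 2.01 and 2.02 TPM in the Rnu11 cKO libraries and 3.59, 1.98 and 2.44 TPM in the control libraries. The Rnu11 cKO libraries were nearly equal, and the controls spread around and above them. The log2 difference was −0.27 (SE 0.17, 95% interval −0.68 to 0.14; limma, adjusted p = 0.43), and −0.10 without control replicate 1.

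Zbtb16 (chromosome 9, 48654297 to 48836222, minus strand) encodes PLZF, the zinc-finger repressor that undifferentiated spermatogonia need for maintenance. It was the most abundant of the 10 genes, with 18.5, 16.4 and 18.4 TPM in the Rnu11 cKO libraries and 13.6, 19.1 and 16.6 TPM in the control libraries. Control replicates held both the highest and the lowest value. The log2 difference was 0.12 (SE 0.13, 95% interval −0.19 to 0.43; limma, adjusted p = 0.64) and came to −0.00011 without control replicate 1.

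Zbtb16 has 2 annotated transcripts, both coding. Zbtb16-202 read 7.33, 7.82 and 8.04 TPM in the Rnu11 cKO libraries and 5.97, 6.89 and 6.75 TPM in the control libraries, without overlap (0.21, limma, adjusted p = 0.48). Zbtb16-201 averaged 10.1 ± 1.30 TPM in Rnu11 cKO and 9.88 ± 2.26 TPM in control testes (SD, n = 3 each). Their proportions overlapped between the groups: Zbtb16-202 made up 43.6% ± 3.95 of the gene in Rnu11 cKO and 40.2% ± 3.86 in control testes (SD, n = 3 each; limma, adjusted p = 0.90).

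Sall4 (chromosome 2, 168748332 to 168767943, minus strand), a zinc-finger factor of undifferentiated germ cells, read 14.2, 15.1 and 14.4 TPM in the Rnu11 cKO libraries and 13.05, 16.3 and 17.9 TPM in the control libraries. All 3 Rnu11 cKO values lay inside the control range. The difference was −0.09 (SE 0.12, 95% interval −0.39 to 0.20; limma, adjusted p = 0.71) and was 0.00058 without control replicate 3. Sall4-201, the main transcript, averaged 9.79 ± 1.12 TPM in Rnu11 cKO and 11.3 ± 2.04 TPM in control testes, and Sall4-206, the next, 3.91 ± 0.96 TPM in Rnu11 cKO and 3.86 ± 0.72 TPM in control testes (SD, n = 3 each).

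Neurog3 had the lowest level and the smallest p of the 10 genes. It lies on chromosome 10 (62133090 to 62134763, plus strand) and encodes the basic helix-loop-helix factor that marks progenitors on the way to differentiation. Its level was 1.16, 1.32 and 1.38 TPM in the Rnu11 cKO libraries and 0.916, 0.742 and 0.729 TPM in the control libraries. Every Rnu11 cKO library was above 1 TPM and every control library below it, so the gene reached the 1 TPM filter only through the Rnu11 cKO group. The means were 1.29 ± 0.11 TPM in Rnu11 cKO and 0.796 ± 0.10 TPM in control testes (SD, n = 3 each), a ratio of 1.62, and the log2 difference was 0.35 (SE 0.14, 95% interval 0.03 to 0.67). The unadjusted p was 0.037 and the adjusted p 0.30 (limma), and an exact two-sided permutation test of 3 against 3 libraries cannot go below p = 0.1. With a pseudocount of 0.1 TPM in place of 1 the difference was 0.63, and with 5 TPM it was 0.12 (limma, adjusted p = 0.30 for both).

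The coding transcript carried the Neurog3 difference. Neurog3-201 read 1.01, 1.08 and 1.31 TPM in the Rnu11 cKO libraries and 0.640, 0.663 and 0.535 TPM in the control libraries. The groups did not overlap, and with a mean under 1 TPM it was not tested. The transcript annotated as intron-retaining, Neurog3-203, averaged 0.150 TPM in Rnu11 cKO and 0.183 TPM in control testes, with overlapping values.

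Within a library, the level of Gfra1 against Neurog3 sets a stem cell gene beside a progenitor gene, and it does not depend on how the library total is scaled. Gfra1 was 3.27, 3.16 and 2.59 times Neurog3 in the Rnu11 cKO libraries and 3.76, 4.65 and 4.10 times Neurog3 in the control libraries. All Rnu11 cKO ratios were below all control ratios, with a mean log2 ratio of 1.58 ± 0.18 in Rnu11 cKO and 2.05 ± 0.15 in control testes (SD, n = 3 each), a difference of −0.47. Leaving out any 1 library gave −0.55 to −0.37. Both genes were higher in Rnu11 cKO, Neurog3 by more, so the ratio restates the Neurog3 difference. The limit given for Neurog3 holds here too, since it reached the 1 TPM filter only through the Rnu11 cKO group. How often the ratio of other gene pairs separates the groups was not counted. The ratio is given as a description, with no test.

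Nanos3 (chromosome 8, 84173731 to 84185217, minus strand) encodes an RNA-binding protein of progenitors and of earlier germ cells. It read 3.46, 3.63 and 2.89 TPM in the Rnu11 cKO libraries and 2.39, 4.41 and 3.37 TPM in the control libraries. The control libraries enclosed all Rnu11 cKO values, and the difference was 0.0013 (SE 0.18, 95% interval −0.43 to 0.44; limma, adjusted p = 1.00). The interval still holds changes of 0.43 in either direction. Its 2 main transcripts differ by 12 bases, 4 codons, at chr8:84176063-84176074, where the first coding exon of Nanos3-201 runs further; capitals mark the bases that Nanos3-202 lacks.
Nanos3-201: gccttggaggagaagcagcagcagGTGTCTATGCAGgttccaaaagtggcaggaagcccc

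The share assigned to the form with this longer exon varied widely between libraries of one group. Both forms were low: Nanos3-201 averaged 1.57 TPM in Rnu11 cKO and 1.92 TPM in control testes. Nanos3-202 averaged 1.59 TPM in Rnu11 cKO and 1.31 TPM in control testes. With the depth unknown, a spread of the estimates cannot be told from a spread in exon use. Nanos3-201 held 57.0%, 68.2% and 9.42% of Nanos3 in the Rnu11 cKO libraries and 39.3%, 49.7% and 78.4% in the control libraries. The third Rnu11 cKO library was the lowest and the third control library the highest, and the groups overlap.

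Lin28a (chromosome 4, 134003330 to 134018841, minus strand) encodes the RNA-binding protein that blocks let-7 maturation and is found in undifferentiated spermatogonia, progenitors above all. It read 11.2, 12.0 and 11.7 TPM in the Rnu11 cKO libraries and 10.9, 14.1 and 12.1 TPM in the control libraries. The Rnu11 cKO values lay inside the control range, with a difference of −0.08 (SE 0.11, 95% interval −0.34 to 0.18; limma, adjusted p = 0.73) that was 0.01 without control replicate 2. Its paralog Lin28b was 8.96, 7.54 and 8.60 TPM in the Rnu11 cKO libraries and 9.30, 10.2 and 10.1 TPM in the control libraries. These groups did not overlap (−0.22, limma, adjusted p = 0.32).

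Shisa6 had the largest difference and the largest spread of the 10 genes. It lies on chromosome 11 (66211725 to 66525964, minus strand) and encodes a membrane protein reported in mouse in a subset of the Gfra1-positive cells, where it dampens WNT signalling. It read 3.96, 10.1 and 1.61 TPM in the Rnu11 cKO libraries and 1.40, 3.93 and 0.624 TPM in the control libraries. Replicate 2 was the highest library of each group, and replicate 2 of the controls was above Rnu11 cKO replicate 3 and close to replicate 1. The means were 5.23 ± 4.40 TPM in Rnu11 cKO and 1.98 ± 1.73 TPM in control testes (SD, n = 3 each), a log2 difference of 0.97 (SE 0.59, 95% interval −0.42 to 2.36; limma, adjusted p = 0.41). Single libraries moved this value: it was 0.43 without Rnu11 cKO replicate 2 and 1.47 without Rnu11 cKO replicate 3. It was 0.61 without control replicate 3.

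Much of that spread lay in a short transcript. Shisa6-203, annotated as a processed transcript, held 49.6%, 66.1% and 0% of Shisa6 in the Rnu11 cKO libraries and 36.6%, 55.5% and 0% in the control libraries. In replicate 3 of both groups it was listed at 0, which in tables without counts can be a failed estimate. The last exon of Shisa6-203 contains all bases of a 96-base exon of the coding Shisa6-202, at chr11:66375159-66375254, and runs further. Reads in the 96 bases could be assigned to either. That exon of Shisa6-202 is shown in capitals for that reason, and Shisa6-201 lacks it.
Shisa6-202: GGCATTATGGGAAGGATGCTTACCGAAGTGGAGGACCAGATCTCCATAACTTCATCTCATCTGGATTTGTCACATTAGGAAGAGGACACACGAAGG

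The coding Shisa6 transcripts alone summed to 2.00, 3.43 and 1.61 TPM in the Rnu11 cKO libraries and 0.887, 1.75 and 0.624 TPM in the control libraries. Only control replicate 2 reached into the Rnu11 cKO range. The means were 2.35 ± 0.96 TPM in Rnu11 cKO and 1.09 ± 0.59 TPM in control testes (SD, n = 3 each). In a fit of all genes on coding transcripts the log2 difference was 0.68 (limma, unadjusted p = 0.014, adjusted p = 0.15). That fit was not among the planned ones, and the share of all genes with such an unadjusted p in it was not counted.

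Across the 10 genes, 39 transcripts are annotated, 21 had a mean of at least 0.5 TPM and 13 reached 1 TPM and were tested. Of these 13, Gfra1-203, Shisa6-202 and Shisa6-203 had a mean of 1 TPM or more only in the Rnu11 cKO group, so that the filter favoured their direction, and of the other 10 isoforms 6 were higher and 4 lower in Rnu11 cKO. Of all 13, none passed the test (0.0136% of all isoforms tested did), and 2, Gfra1-203 and Etv5-201, had an unadjusted p under 0.05 against 11.2% of all isoforms. Gfra1-203 and Zbtb16-202 were above every control library in every Rnu11 cKO library, against 11.6% of all isoforms, and none was below every control library, against 5.17%. Of 10 isoform shares tested, 5 were higher and 5 lower, none passed the test (0.0112% of all shares did), none had an unadjusted p under 0.05 (5.78% of all shares did), and none was free of overlap between the groups (11.7% of all shares were).

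**Figure D2:**
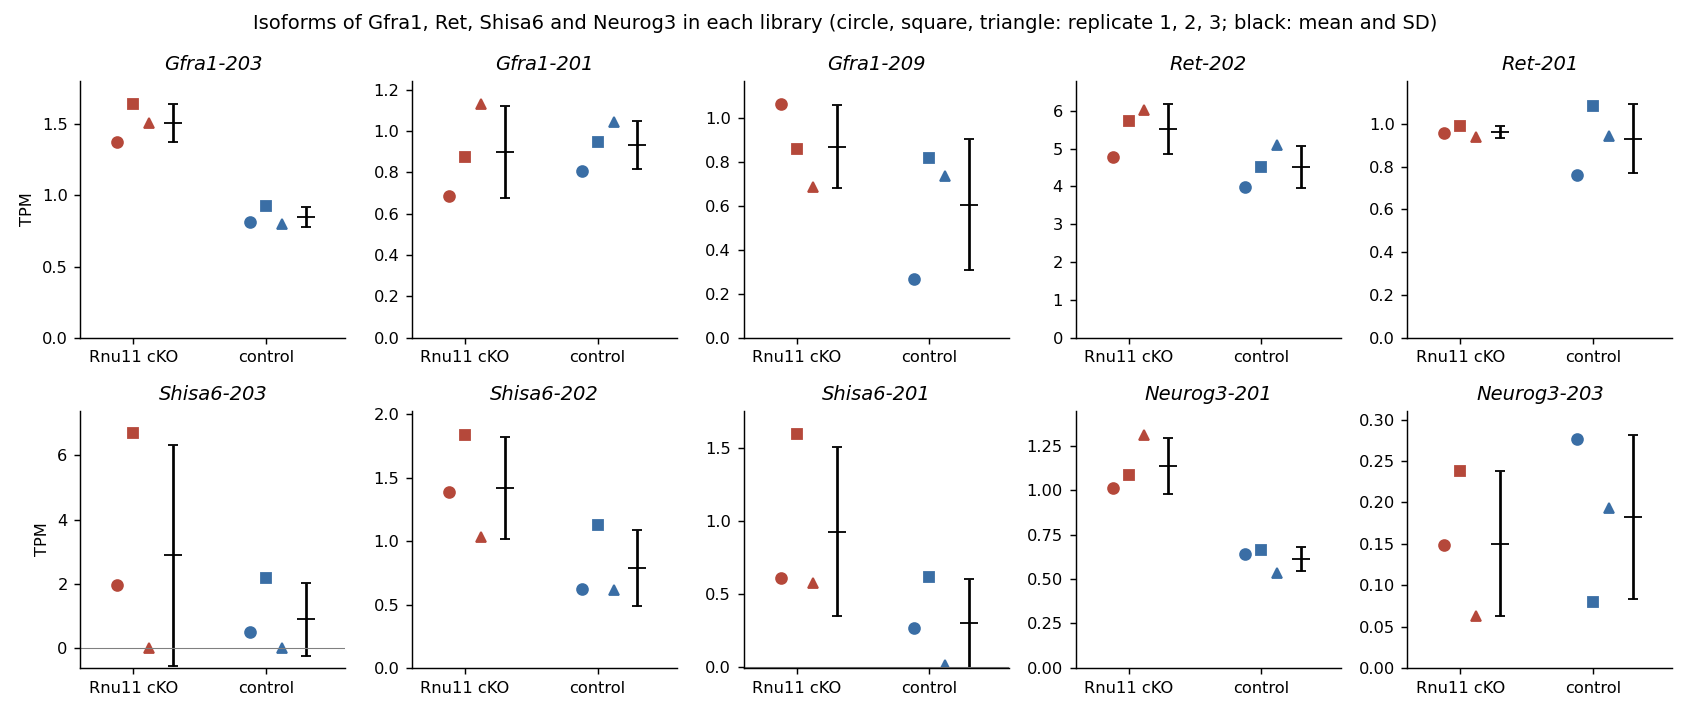
TPM of the transcripts of Gfra1, Ret, Shisa6 and Neurog3 in the 3 Rnu11 cKO libraries (red, left) and the 3 control libraries (blue, right), with the mean and SD of each group in black; each panel has its own axis. Gfra1-203 and Neurog3-201 separate the groups, whereas Gfra1-201, Gfra1-209 and Ret-201 overlap, and Shisa6-203 is listed at 0 in replicate 3 of both groups.

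The order of the levels was much the same in both groups. By mean TPM it ran Zbtb16, Sall4, Lin28a, Etv5, Ret, Shisa6, Gfra1, Nanos3, Id4 and Neurog3 in Rnu11 cKO testes. In control testes the first 5 genes had the same order, followed by Nanos3, Gfra1, Id4, Shisa6 and Neurog3. Neighbours in the Rnu11 cKO order whose ranges over the libraries overlapped were Lin28a and Etv5, Ret and Shisa6, Shisa6 and Gfra1, and Gfra1 and Nanos3. In the control order, ranges overlapped between Zbtb16 and Sall4, Sall4 and Lin28a, and each pair of neighbours from Nanos3 down to Neurog3. The move of Shisa6 from rank 6 in Rnu11 cKO to rank 9 in control testes was the largest change of rank.

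Markers of the later germ cell stages were lower. All 8 markers of differentiating spermatogonia were lower in Rnu11 cKO, with log2 differences from −0.47 to −0.01 and a median of −0.23. Of these, 4 had an unadjusted p under 0.05, where 3.98% of all genes were lower at that level, 5 had every Rnu11 cKO library below every control library, against 5.77% of all genes, and none passed the adjusted test. Dmrtb1, a factor at the switch from mitosis to meiosis, read 17.6, 15.5 and 17.9 TPM in the Rnu11 cKO libraries and 22.3, 24.7 and 24.9 TPM in the control libraries. These groups were well apart (−0.47, limma, adjusted p = 0.29). Sohlh2, a helix-loop-helix factor of differentiation, averaged 8.71 ± 0.37 TPM in Rnu11 cKO and 11.5 ± 0.95 TPM in control testes (SD, n = 3 each; −0.36, limma, adjusted p = 0.29). Rhox13, a homeobox gene, averaged 6.09 ± 0.64 TPM in Rnu11 cKO and 8.19 ± 0.58 TPM in control testes (SD, n = 3 each; −0.38, limma, adjusted p = 0.29).

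Further along, 9 of 10 meiotic prophase markers were lower, 8 of them with an unadjusted p under 0.05 against 3.98% of all genes, and the median was −0.53. None passed the adjusted test (limma, adjusted p = 0.29 to 0.34). Their summed level was 265 to 341 TPM in Rnu11 cKO and 367 to 462 TPM in control libraries. Smc1b, a meiotic cohesin, was at 24.3 ± 3.34 TPM in Rnu11 cKO and 39.6 ± 2.06 TPM in control testes (SD, n = 3 each; −0.69, limma, adjusted p = 0.29). Only Rec8 of the meiotic prophase markers was higher, by 0.38 (limma, adjusted p = 0.34), and it was named after its values were seen. Markers listed as pan germ cell were lower too, and how far they follow the meiotic cells was not tested. The 4 pan germ cell markers found in the tables summed to 277 to 321 TPM in Rnu11 cKO and 386 to 402 TPM in control libraries, with a median of −0.45. The log2 difference was −0.47 for Mael, a piRNA pathway gene, −0.36 for Dazl, a germ cell RNA-binding protein, and −0.51 for Ddx4, a germ cell RNA helicase (limma, adjusted p = 0.29 for each).

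Other genes of undifferentiated spermatogonia lay between. Of 20 listed, 17 were tested, 6 were higher and 11 lower in Rnu11 cKO, and the median was −0.02. None passed the adjusted test, and 1 had an unadjusted p under 0.05, against 16.1% of all genes. None had every Rnu11 cKO library above every control library, against 14.5% of all genes. In 3 every Rnu11 cKO library lay below every control library, against 5.77% of all genes. These were Lin28b (given above), Taf4b (−0.10) and Bmi1 (−0.14), the last pair named after their values were seen (limma, adjusted p = 0.52 and 0.41). The gene of smallest p was Itga6, an integrin that also marks other cells of the testis, at 27.9 ± 4.67 TPM in Rnu11 cKO and 21.9 ± 1.47 TPM in control testes (SD, n = 3 each; 0.33, limma, adjusted p = 0.31). Adgra3, an adhesion receptor of stem cells, averaged 88.5 ± 10.01 TPM in Rnu11 cKO and 72.5 ± 12.7 TPM in control testes (SD, n = 3 each; 0.29, limma, adjusted p = 0.35). The peritubular myoid markers (3 of 5 higher, median 0.17) and the endothelial markers (5 of 5 higher, median 0.19) lay close to the median of the stem and progenitor genes.

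**Figure D3:**
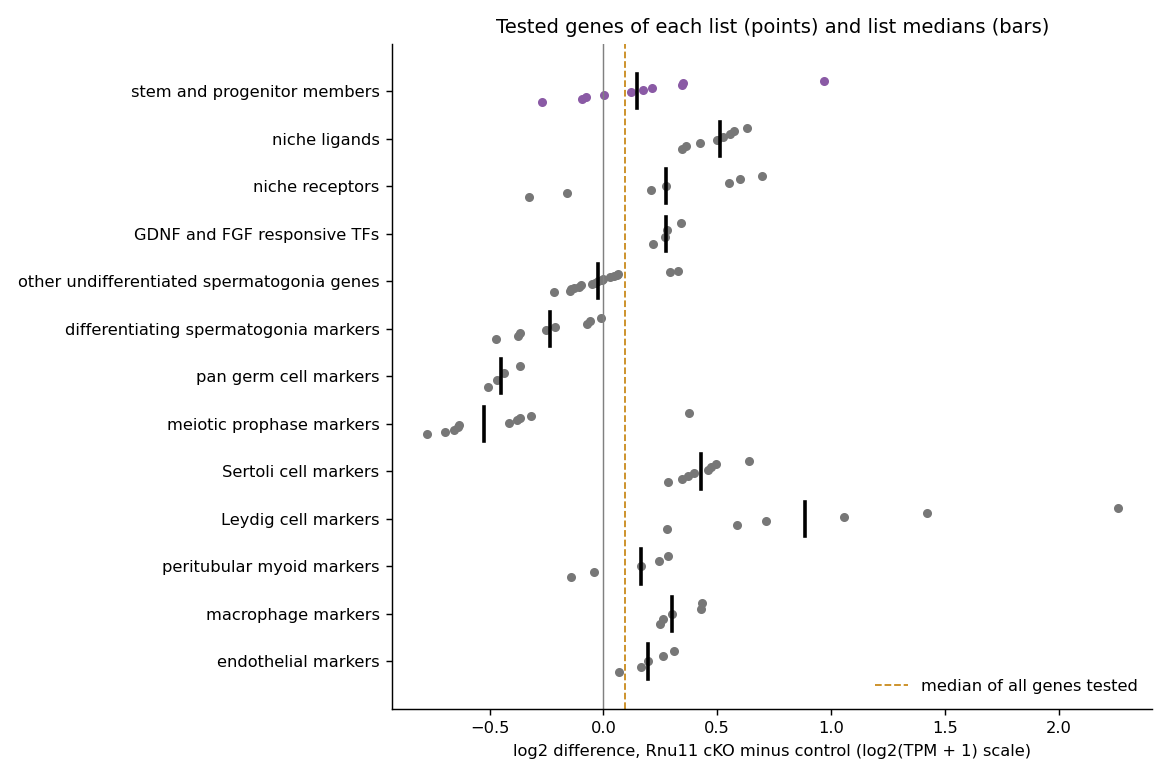
Log2 difference, Rnu11 cKO minus control on the log2(TPM + 1) scale, of each tested gene (points) by list, with list medians as bars; the dashed line is the median of all genes tested, 0.09. The stem and progenitor genes (purple, median 0.15) lie near that line, between the lower germ cell lists (medians −0.23, −0.45 and −0.53) and the higher Sertoli and Leydig cell lists (0.43 and 0.88).

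Because TPM divides a fixed total, the level of a gene depends on what else the sample holds, and the choice of a common scale moved these genes. Scaled to the total of nuclear protein-coding genes, the median log2 difference of the 10 genes was 0.03 and that of all genes −0.02. On that total, Gfra1 came to 0.06, Ret to 0.09, Etv5 to 0.22 and Neurog3 to 0.28, while Zbtb16 (−0.01) and Nanos3 (−0.11) took the other sign. Scaled to the pan germ cell markers, which lie lower in Rnu11 cKO, genes move up together, and the median of the 10 genes was 0.54 and that of all genes 0.48, and all 10 were higher in Rnu11 cKO. On that scale, Etv5 and Ret came to 0.76 and 0.60, Gfra1 to 0.53, Neurog3 to 0.58 and Zbtb16 to 0.55, with adjusted p-values between 0.052 and 0.063 (limma). On that scale 55.3% of all genes were higher with an unadjusted p under 0.05, so these values are not a result about the 5 genes. Id4 came to 0.05, Lin28a to 0.34 and Sall4 to 0.34 on that scale, each opposite in sign to its difference in the deposited TPM and, on both scales, below the median of all genes. The differentiating spermatogonia markers had a median of 0.21 on that scale. On each of these scales the median of the 10 genes lay slightly above that of all genes tested.

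**Figure D4:**
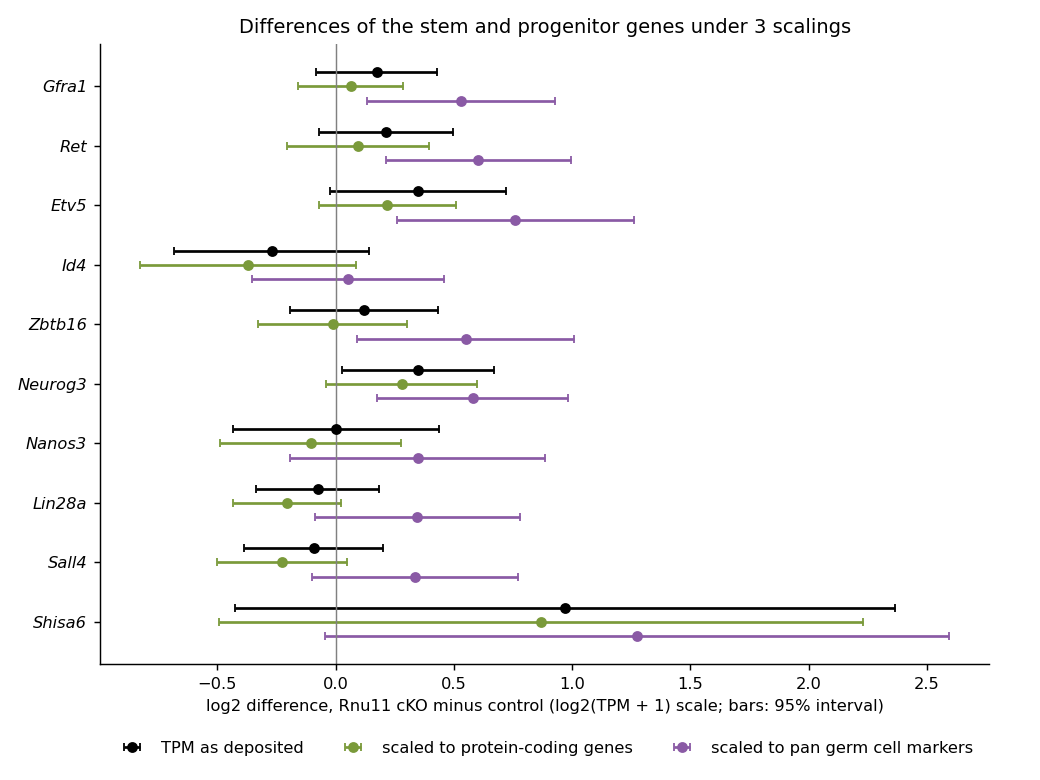
Log2 difference, Rnu11 cKO minus control, of each gene with its 95% interval from limma (bars), from the deposited TPM (black) and after scaling each library to its protein-coding genes (green) or to its pan germ cell markers (purple). The order of the genes changed little with the scale, while the whole set moved; with pan germ cell scaling the intervals of Gfra1, Ret, Etv5, Zbtb16 and Neurog3 lie above 0, where 55.3% of all genes were higher at that level, and no adjusted p passes the threshold.

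The authors' deposited table of group averages and log2 fold changes gave the same sign for each gene except Nanos3, which was near 0 in both. In the authors' deposited table the confident log2 fold change, Rnu11 cKO over control, was 1.34 for Shisa6, 0.71 for Neurog3, 0.56 for Etv5, 0.25 for Ret, 0.21 for Gfra1 and 0.13 for Zbtb16. For the lower genes it was −0.24 for Id4, −0.06 for Sall4 and −0.03 for Lin28a, again from the authors' deposited table. How the confident value was computed is not given in the sources used here.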

How the data were processed

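Whole testes of 3 Rnu11 cKO and 3 control mice (postnatal day 14) gave stranded, rRNA-depleted libraries of total RNA, per the labels' protocols. Genotype and replicate number come from the labels, and the design text counts animals, so a library stands for an animal. Per the submitters' processing notes, HISAT2 and the GRCm38 build were used; the quantification tool, its annotation and its use of strand are not given in the sources. TPM estimates of genes and isoforms were deposited for each library. Per the file headers, the authors also deposited tables of group averages with log2 fold changes, used here for description; the averages equal the means of the 3 libraries. Without counts the depth is unknown.

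The gene test was a two-sided trended limma fit (limma 3.58.1, R 4.3.3) to log2 of TPM plus 1. Genes entered it from an average of 1 TPM, and p-values were adjusted by Benjamini-Hochberg over all genes tested. All adjusted p-values are limma's. Isoforms were tested likewise. An isoform's share was tested, without trend, as the log2 ratio of its TPM to the summed TPM of the gene's other isoforms, each plus 0.1; this used genes from 5 TPM and isoforms with 5% to 95% of the gene. The fits were tested on simulated data. Tables and figures were made with Python 3.11.15, pandas 2.3.3 and matplotlib 3.10.9. Transcript structures and coordinates came from GENCODE's GRCm38 annotation, which held 53388 of 55353 gene symbols.

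The 10 genes and the other lists were chosen with earlier results of these data known. All 10 were named; from each other list at most 3 genes of smallest unadjusted p were named, besides Gdnf, Fgfr1, Bcl6b, Lhx1 and Pou3f1, and isoforms from a mean of 0.5 TPM (Neurog3-203, below it, was named after its values were seen). Outside that rule, Taf4b, Bmi1 and Rec8 were also named after their values were seen. Gcna, a pan germ cell marker, was not found by symbol. Alternatives were other pseudocounts, filters and scalings, no trend, coding isoforms only, a replicate block and leaving out each library.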

Additional observations from a re-analysis of the deposited data

How the results depend on the processing

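Another filter, no filter, no trend or a replicate block leaves each difference as it was, so the direction could not change there. The same held for coding isoforms only in Ret, Etv5, Id4, Zbtb16 and Lin28a. Counting these, of 154 gene-level alternatives for the 10 genes none crossed the test's threshold and 140 kept the direction. The exceptions were Id4 with pan germ cell scaling (0.051), Zbtb16 with protein-coding scaling (−0.012) and with libraries left out (−0.00011 to 0.23), Lin28a (pan germ cell scaling 0.34; libraries left out −0.16 to 0.014), Sall4 (0.34; −0.21 to 0.00058) and Nanos3, whose difference of 0.0013 became −0.082 with median-ratio scaling, −0.11 with protein-coding scaling, −0.012 with coding isoforms only, −0.0049 with a pseudocount of 5 TPM and −0.17 to 0.16 with libraries left out. The median of the 10 genes was 0.054 with median-ratio, 0.54 with pan germ cell and 0.026 with protein-coding scaling, and 0.066 to 0.21 with libraries left out. Isoform levels changed sign with median-ratio scaling for Zbtb16-201 (−0.059) and Sall4-206 (−0.083). With libraries left out, levels ranged from −0.18 to 0.0089 for Lin28a-201, −0.54 to 0.19 for Nanos3-201, −0.013 to 0.37 for Nanos3-202, −0.12 to 0.19 for Zbtb16-201 and −0.13 to 0.16 for Sall4-206, and share ratios from −0.53 to 0.075 for Sall4-201, −0.057 to 0.37 for Sall4-206 and −0.27 to 0.35 for Lin28a-204.

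The number of genes called among all genes, 5, was 3 with a filter of 5 TPM, median-ratio scaling, no trend or protein-coding scaling, 0 with no filter or a pseudocount of 5 TPM, 8 with a pseudocount of 0.1 TPM, 9 with pan germ cell scaling and 2 to 8 with libraries left out. The number of isoforms called, 6, was 11 with a pseudocount of 0.1 TPM and 2 to 11 with libraries left out, and the number of shares called, 4, was 2 to 9. The causes were not tested.

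No pairing by replicate number was seen over all genes: deviations of same-numbered libraries correlated at −0.07, 0.03 and 0.08. Such correlations cannot exclude a factor shared by same-numbered libraries, and for Shisa6 the replicates ranked alike in both groups. With the replicate number as a block, 0 genes, 0 isoforms and 0 shares were called, and no call on the 10 genes changed. For Shisa6 the block took the SE from 0.59 to 0.15. Its unadjusted p went from 0.14 to 0.0011, with an adjusted p of 0.19 (limma). With 3 libraries per group and no counts, the 95% intervals of the 10 genes are the limit of what can be seen; depth cannot be assessed.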
